A study of Mus musculus with 3 samples.

Results

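The genes described here are 10 members of the interleukin-1 (IL-1) system and of the inflammasome, read in immune cells of melanoma grafts in mice of 3 ages. They were chosen by symbol from a list of the pathway, and all 10 were found among the 55401 genes listed in the count matrices: the ligands Il1b, Il1a and Il18, the antagonist Il1rn, the decoys Il1r2 and Il18bp, the sensor Nlrp3, the caspases Casp1 and Casp4, and the pore protein Gsdmd. Mice aged 4, 12 or 20 months, 7 of each age, received 500000 YUMM1.7 cells under the skin. YUMM1.7 is a mouse melanoma line that is kept in culture, and every tumour grew from this 1 line. Tumours were taken on day 18, digested, and live CD45+ leukocytes were sorted with an antibody to CD45.2. The groups differ in age alone as far as the labels say, and strain and sex are not given in the sources used here. RNA was read by PIP-seq, a 3' single-cell method that captures cells with barcoded beads in droplets made by shaking. Each age is 1 library, so age and library cannot be told apart, no difference below has a replicate check, and no test of age was made.

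IL-1β and IL-1α are alarm cytokines that act through the receptor IL-1R1 and its partner IL-1RAP. IL-1β and IL-18 are made as inactive precursors and are cut by caspase-1, which is switched on inside inflammasomes such as that of NLRP3. Caspase-11, the product of Casp4, senses bacterial lipopolysaccharide in the cytosol, and both caspases cut gasdermin D, which then forms pores in the cell membrane. The system is held in check by IL-1RA, the product of Il1rn, which occupies IL-1R1 without signalling, by IL-1R2, a receptor without a signalling tail, and by IL-18BP, a secreted protein that captures IL-18. In tumours, monocytes and macrophages are the usual source of IL-1β. Transcripts are counted here, and neither precursor cleavage nor secretion was measured.

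On GRCm38, with the GENCODE M21 annotation, Il1b (ENSMUSG00000027398.13) lies on the minus strand of chromosome 2 from 129364570 to 129371139, next to Il1a (129299610 to 129309972, minus strand). Il1rn lies on the plus strand of the same chromosome from 24336853 to 24351494. Casp1 (5298517 to 5307265) and Casp4 (5308828 to 5336783) are neighbours on the plus strand of chromosome 9, which also holds Il18 (50554827 to 50581840, plus strand). Il1r2 is on chromosome 1 (40074079 to 40125231, plus strand), Il18bp on chromosome 7 (102014885 to 102018690, minus strand), Nlrp3 on chromosome 11 (59541568 to 59566956, plus strand) and Gsdmd on chromosome 15 (75862327 to 75867408, plus strand). Annotated genes on the opposite strand share exonic bases with 3 members: Il1bos shares 25 bases with Il1b, Gm14023 shares 222 with Il1a, and Numa1 shares 80 with Il18bp. Whether strand was used in counting is not given in the sources used here, so reads of these pairs may be mixed.

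The 3 promoters printed here belong to the ligand and the antagonist that the results turn on (Il1b, Il1rn) and to the member with the most matches to the NF-κB pattern (Casp4). Each is the 250 bases before a RefSeq start on GRCm38.p6, read in the direction of the gene. Capitals mark matches on either strand to TATAAA, the TATA box, or to GGGNNNNNCC, a loose form of the sites bound by NF-κB.
Il1b, chr2:129371140-129371389, minus strand: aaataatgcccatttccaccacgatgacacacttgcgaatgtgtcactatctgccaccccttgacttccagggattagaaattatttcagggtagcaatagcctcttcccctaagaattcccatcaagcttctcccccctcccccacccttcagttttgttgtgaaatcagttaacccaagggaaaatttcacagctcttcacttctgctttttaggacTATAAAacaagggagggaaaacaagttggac
Il1rn, chr2:24336610-24336859, plus strand, the first of 3 listed starts: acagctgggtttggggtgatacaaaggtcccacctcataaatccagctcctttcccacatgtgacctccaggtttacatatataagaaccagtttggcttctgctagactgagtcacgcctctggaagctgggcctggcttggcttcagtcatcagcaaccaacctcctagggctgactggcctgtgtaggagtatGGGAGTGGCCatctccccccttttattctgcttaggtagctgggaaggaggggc
Casp4, chr9:5308599-5308848, plus strand, the first of 2 listed starts: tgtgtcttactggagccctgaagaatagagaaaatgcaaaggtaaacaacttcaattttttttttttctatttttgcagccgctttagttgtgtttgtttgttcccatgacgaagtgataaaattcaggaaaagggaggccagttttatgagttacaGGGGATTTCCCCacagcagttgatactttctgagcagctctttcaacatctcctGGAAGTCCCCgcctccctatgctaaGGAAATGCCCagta

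RefSeq promoters were matched for 9 of the 10 members, in 13 windows (Gsdmd was not matched). TATAAA was found upstream of Il1b, where it spans 31 to 26 bases before the start, of Il1a at 32 to 27 bases, and of Il18 on the reverse strand at 175 to 170 bases. It occurs in 12.4% of all 32851 windows of this length. GGGNNNNNCC was found upstream of Il1rn, Nlrp3, Casp1 and Casp4 and occurs in 45.8% of all windows. GAGGAA, a core of sites bound by the myeloid factor PU.1, was found for Il1a, Nlrp3 and Casp1 and occurs in 23.3% of windows. GAAANNGAAA, a form of the interferon response element, was found for none and occurs in 2.98%. No 2 different motifs overlapped in these windows, and 3' counts do not tell which start was used.

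Median counts per cell were 6789 at 4 months, 7411 at 12 and 6936 at 20, over 14393, 14653 and 14684 deposited cells. No deposited cell of these libraries had fewer than 3555, 4493 and 4356 counts, in the same order. After removal of 863 to 881 probable doublets per library, 41105 cells remained. Pairs of libraries shared 2 to 4 cell barcodes. Cells were grouped without the 10 members and without the related gene lists given below, so none of these genes placed a cell in its cluster. Clusters of monocytes and macrophages were pooled by their complement gene C1qa. The C1q-high clusters, with a C1qa level of at least 1000 CPM (counts in every 1000000 counts of the group), held 9398 cells, and the C1q-low monocyte clusters held 4885. That limit was set after the clusters had been seen. Within the C1q-high group, M1 was led by Pf4, Cd81 and Ccl8 of resident-type macrophages, M2, whose markers were those of activated monocytes more than of macrophages, by Cxcl11, Cxcl9 and Acod1, M4 by Cxcl2, Il1b, Ccrl2 and Cd14, and M0, which stayed unnamed, by Ly6i and class II genes. A further 189 cells of the C1q-high group formed M11. Within the C1q-low group, M3 was led by Slpi, Rsad2 and Cxcl10, M5 by Arg1 and Capg, and M6 by F13a1, Hp and Fn1 of circulating-type monocytes. Type 2 dendritic cell-like cells (1281) were marked by Cd209a and Ffar2, mature dendritic cell-like cells (408) by Fscn1 and Ccr7, type 1 dendritic cell-like cells (341) by Xcr1 and Clec9a, and plasmacytoid dendritic cell-like cells (170) by Siglech. T-like cells numbered 18010 and NK-like cells 6115. Levels below are CPM, intervals are exact 95% intervals, and both intervals and shares of cells cover counting error only.

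Lymphocytes served as the background. Il1b read 91.3, 116 and 105 CPM in T-like cells and 88.5, 109 and 94.2 CPM in NK-like cells at 4, 12 and 20 months. The 12-month library was highest in both classes, and their ranges overlapped. Against T-like cells of the same library, 5 of the 9 members with enough counts were at least 4-fold higher in the C1q-high clusters in all 3 libraries. They were Il1b, Il1rn, Il18, Il18bp and Nlrp3, and 6.59% of all genes met the same rule. The C1q-low monocyte clusters met it for 4 of 9 (Il1b, Il1rn, Il18 and Nlrp3, against 8.59% of genes). In type 2 dendritic cell-like cells 3 of 9 met it (Il1b, Il1r2 and Nlrp3, against 5.60%). Type 1 dendritic cell-like cells met it for Nlrp3 alone of 9 (5.88%) and mature dendritic cell-like cells for Il1b alone of 7 (6.27%). In the latter the 10 cells with the most Il1b, of 137, 169 and 102, held 49.7%, 46.3% and 45.0% of its counts. T-like cells were not trimmed, so leaving these cells out could only lower the fold. Without them the level was 2.94, 3.17 and 2.94 times that of T-like cells, under the 4-fold rule (with all cells 5.34, 5.53 and 4.75 times). Plasmacytoid dendritic cell-like cells met it for 0 of 7 (10.1%). Casp1, Casp4 and Gsdmd met it in none of these 6 groups. Il1b, Il1rn, Il18 and Nlrp3 thus met the rule in both the C1q-high and the C1q-low clusters. Il18bp met it in the C1q-high clusters alone and Il1r2 in type 2 dendritic cell-like cells alone. Il1a had too few counts for the rule. RNA of the caspases and of the pore protein was also counted in lymphocytes.

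**Figure D1:**
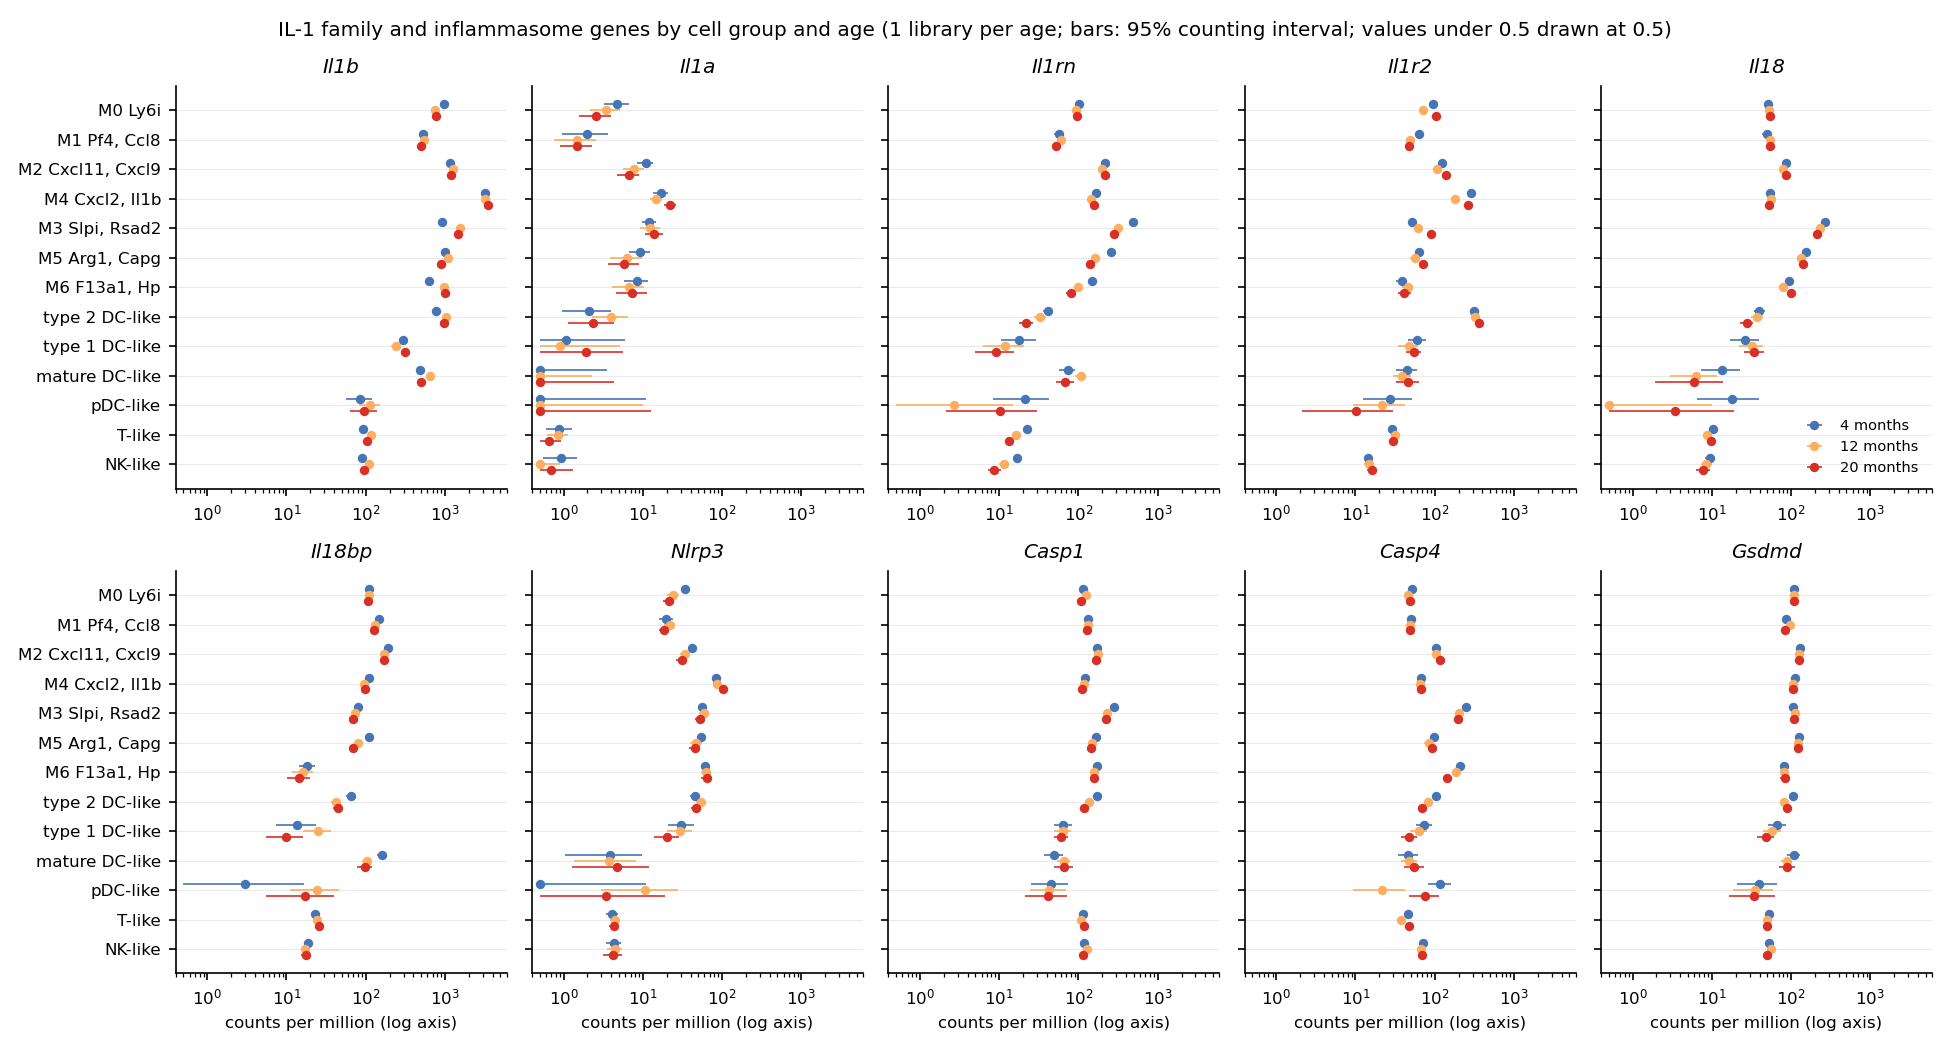
Levels of the 10 genes in 13 groups of cells at 4, 12 and 20 months. Each panel is 1 gene, the axis is CPM on a log scale, points are libraries, bars are 95% counting intervals, and values under 0.5 are drawn at 0.5. Il1b peaks in cluster M4 in each library, while Casp1 spans a far narrower range and overlaps the T-like level in several myeloid clusters.

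Il1b, the gene of IL-1β, was counted chiefly in C1q-high cells. Over the 3 libraries, 61.4% of all its counts fell in the C1q-high clusters and 33.5% in M4 alone, a cluster of 2043 cells. The C1q-low monocyte clusters held 19.9%, type 2 dendritic cell-like cells 5.81% and T-like cells 6.90%. In M4 the level of Il1b was 3166, 3180.4 and 3521 CPM at 4, 12 and 20 months. All 3 of these values lay above the 3 values of each of the 12 other groups that had at least 50 cells per library. The 24 neutrophil-like cells, too few to be ranked, read 11533, 4379 and 1359.8 CPM. M3 followed with 929, 1544 and 1455 CPM and M2 with 1151, 1249 and 1193, and the ranges of M3 and M2 overlapped. Below them, M7 (the main cluster of type 2 dendritic cell-like cells, 811, 1089 and 1031), M5, M6 and M0 formed a run of overlapping neighbours. The resident-type macrophages of M1 were lower, at 530.1, 536 and 492 CPM, and overlapped mature dendritic cell-like cells (488, 641 and 497). Type 1 dendritic cell-like cells read 296, 238 and 317 CPM, and plasmacytoid dendritic cell-like cells, at 83.8, 113 and 95.9, overlapped the T-like level. Within the C1q-high group, Il1b thus differed by several fold between clusters in every library.

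Il1b was also unevenly spread over single cells. When each cell was thinned to 2000 counts, the share of M4 cells with an Il1b count was 94.0%, 93.6% and 92.9%, with a background of 17.0%, 21.0% and 16.7% in T-like cells. In the C1q-high clusters as a whole the share was 67.5%, 66.7% and 58.7%, and in the C1q-low clusters 52.0%, 58.9% and 53.3%. No cell fell short of 2000 counts. Without thinning, the shares were 90.1%, 91.8% and 85.8% in C1q-high, 78.5%, 86.2% and 78.7% in C1q-low and 41.9%, 54.7% and 45.4% in T-like cells. The 10% of C1q-high cells with the most Il1b counts held 41.2%, 41.1% and 48.5% of them at 4, 12 and 20 months, and the same part of C1q-low cells 48.6%, 47.1% and 53.9%. In M4 these top cells held 25.7%, 24.6% and 27.0%, and the median M4 cell had 24, 31 and 30 Il1b counts against 6, 6 and 4 over all C1q-high cells. M4 cells carried Il1b almost throughout, while the thinned share was lower over the pooled C1q-high clusters, which include M4, and the C1q-low clusters. A thinned share also falls with the level, so it does not separate fewer cells from fewer counts per cell.

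With age, Il1b was higher in both older libraries in the pooled C1q-low clusters, while in the pooled C1q-high clusters it differed less and its sign depended on how clusters were weighted. In the C1q-high clusters it read 1391 CPM (1377 to 1406) at 4 months, 1537 CPM (1523 to 1552) at 12 months and 1229 CPM (1217 to 1240.4) at 20 months. Relative to 4 months, the log2 ratio at 12 months was 0.14 (0.12 to 0.16), and that at 20 months −0.18 (−0.20 to −0.16). These small pooled ratios changed sign when each C1q-high cluster was given the same weight (−0.032 and 0.034). In M4 itself the ratios were 0.0065 and 0.15, in M1 0.015 and −0.11, in M2 0.12 and 0.052, and in M0 −0.42 and −0.37. M4 made up 570 of 2846, 853 of 2922 and 620 of 3630 C1q-high cells, and M1 503, 689 and 1253. In the C1q-low clusters Il1b was 875 CPM (861 to 889) at 4 months and higher in both other libraries, 1218 CPM (1197 to 1240.3) at 12 and 1139 CPM (1119 to 1159.6) at 20 months. The ratios were 0.48 (0.44 to 0.51) and 0.38 (0.35 to 0.42). In M3 they were 0.73 (0.68 to 0.78) and 0.65 (0.60 to 0.70), and M6 gave 0.63 and 0.69. M5 gave 0.11 and −0.19, so the difference was not shared by all 3 clusters. In type 2 dendritic cell-like cells Il1b was 761, 1031 and 985 CPM, with ratios of 0.44 and 0.37. The T-like background moved by 0.35 and 0.20 between the same libraries. With the T-like level subtracted, the C1q-low ratios were 0.49 and 0.40.

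Other genes were measured beside Il1b. A list of 15 early-response genes, such as Fos, Jun and Egr1, was drawn up with handling of the cells in mind. Atf3 and Fos of this list were among the 10 leading genes of M4, and the part of handling in that cluster was not tested. The summed level of the list was 9534, 9953 and 7685 CPM in M4 and 6422, 8015 and 5591 CPM in M3. In M3 both this sum and Il1b were higher at 12 than at 4 months, while at 20 months the sum was lower than at 4 months and Il1b was higher. Markers of neutrophils, cells that carry much Il1b, summed to 149.7, 219.7 and 223 CPM in the C1q-low clusters over a list of 9 genes, none of them at 0. S100a8 in that list read 12.4, 61.8 and 65.0 CPM. The part of either list in the Il1b ratios was not tested.

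Il1a, the gene of IL-1α, was sparse. It had 53.6% of its counts in the C1q-high and 30.4% in the C1q-low clusters, with levels of 8.40, 7.40 and 6.45 and 10.3, 8.75 and 9.48 CPM. As with Il1b, M4 led with 17.0, 14.6 and 22.2 CPM, and M3 came next with 12.0, 12.4 and 13.9, their ranges apart. T-like cells had 0.888, 0.853 and 0.647 CPM. Mature dendritic cell-like cells had no Il1a count in any library, which allows up to 2.89, 1.87 and 3.54 CPM, and neither had plasmacytoid dendritic cell-like cells, which allows up to 8.98, 8.07 and 10.3 CPM. After thinning to 2000 counts, 2.46%, 2.23% and 3.55% of M4 cells had an Il1a count. For every 100 Il1b counts there were 0.603, 0.481 and 0.525 Il1a counts in the C1q-high clusters and 1.18, 0.718 and 0.832 in the C1q-low clusters. The log2 change of this ratio in the C1q-low clusters was −0.71 (−1.08 to −0.34) at 12 and −0.50 (−0.85 to −0.15) at 20 months. Il1a itself gave −0.23 (−0.62 to 0.15) and −0.12 (−0.48 to 0.24) there, with intervals that include 0.

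Il1rn, the gene of the IL-1 receptor antagonist, stood highest in the C1q-low clusters and was lower there in the older libraries. Its level in these clusters was 339 CPM (331 to 348) at 4 months, 200.1 CPM (191 to 209) at 12 months and 182 CPM (174 to 190.3) at 20 months. The 4-month library lay above the other two, whose intervals overlap. The log2 ratios were −0.76 (−0.84 to −0.69) and −0.90 (−0.97 to −0.82), and over 10 alternative ways of processing they ranged from −0.86 to −0.64 and from −1.16 to −0.82. All 3 clusters of the group gave a lower level. M3 read 491, 312 and 282 CPM, M5 257, 163 and 142 CPM and M6 147, 99.2 and 80.1 CPM. In the C1q-high clusters Il1rn was 139, 118 and 111 CPM, with ratios of −0.24 (−0.31 to −0.17) and −0.32 (−0.39 to −0.26). Among them M2 held the most Il1rn, at 217, 196 and 219 CPM, with no order by age, and M1 the least, at 56.2, 60.7 and 52.1 CPM. The share of thinned cells with an Il1rn count was 37.0%, 26.1% and 26.2% in the C1q-low and 19.9%, 18.3% and 16.4% in the C1q-high clusters.

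Il1rn was lower in the older libraries in lymphocytes and dendritic cells too. T-like cells read 22.4, 16.2 and 13.4 CPM and NK-like cells 16.7, 11.5 and 8.69 CPM, and the share of thinned T-like cells with a count was 4.57%, 2.96% and 2.66%. The type 2 dendritic cell-like cells read 41.3, 32.7 and 21.9 CPM. Mature dendritic cell-like cells, in contrast, read 73.1, 107 and 68.4 CPM, highest at 12 months. Subtracting the T-like level of each library was 1 of the 10 alternatives whose ranges are given above for the C1q-low ratios. Those ranges are therefore no separate check of the background. Cluster A8 of the T-like cells stood apart. It was led by Tnfrsf4, Areg and Foxp3 of regulatory T cells. Its Il1rn level was 61.6, 45.5 and 23.7 CPM, against 16.2, 12.3 and 12.1 CPM in A1, a cluster led by Cxcr6 and Cd8b1, and 15.98, 12.9 and 10.0 CPM in A3, a cluster led by Dapl1 and Ccr7. The 10 highest of its 730, 631 and 487 cells held 27.8%, 48.0% and 44.4% of the counts. Without them A8 read 45.1, 24.0 and 13.5 CPM, at 20 months close to A1, from which no cells were left out. At 12 months A1 was only a part of the Cxcr6 and Cd8b1 cells. It held 2526, 702 and 2526 cells, while A6, led by Cxcr6, Cbfa2t2, Gm47854 and Cd8b1, held 14, 2203 and 19. Cbfa2t2 and Gm47854 stood apart in 1 library and were kept when all cells were clustered. This applies to every A1 value below. Foxp3, the regulatory T cell factor, read 236, 196 and 167 CPM in A8 in the same libraries. Markers of activated monocytes, a list of 10 genes that includes Acod1, Slfn4 and Cxcl10, summed to 5772, 4639.8 and 4548 CPM in the C1q-low clusters, highest at 4 months like Il1rn. Their part in the Il1rn ratios was not tested.

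Set against Il1b, the antagonist's share of counts was lower in the older C1q-low monocytes. These clusters held 38.8 (37.6 to 39.97) Il1rn counts per 100 Il1b counts at 4 months, 16.4 (15.7 to 17.2) at 12 months and 15.98 (15.2 to 16.8) at 20 months. Both genes were counted in the same cells, so the ratio does not depend on the scaling to total counts. It is not corrected for differences in how well each gene is captured and is compared only between groups and ages. Its log2 change was −1.24 (−1.32 to −1.16) and −1.28 (−1.36 to −1.20). In M3 there were 52.8, 20.2 and 19.4 Il1rn counts per 100 Il1b counts, in M5 25.7, 15.1 and 16.1, and in M6 23.6, 10.3 and 8.01, with the 4-month library highest in each. The C1q-high clusters held 10.0, 7.68 and 9.06, a log2 change of −0.38 (−0.45 to −0.31) and −0.14 (−0.21 to −0.073). Among M0, M1, M2 and M4 of that group, M4 had the lowest ratio, 5.32, 4.52 and 4.47, and M2 the highest, 18.9, 15.7 and 18.3, while M0 (10.4, 12.7 and 12.6) and M1 (10.6, 11.3 and 10.6) lay between. In type 2 dendritic cell-like cells the ratio was 5.42, 3.18 and 2.22. T-like cells, where both genes are near the background, had 24.6, 14.0 and 12.8 and NK-like cells 18.9, 10.6 and 9.22, so the 4-month library was highest there as well.

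**Figure D2:**
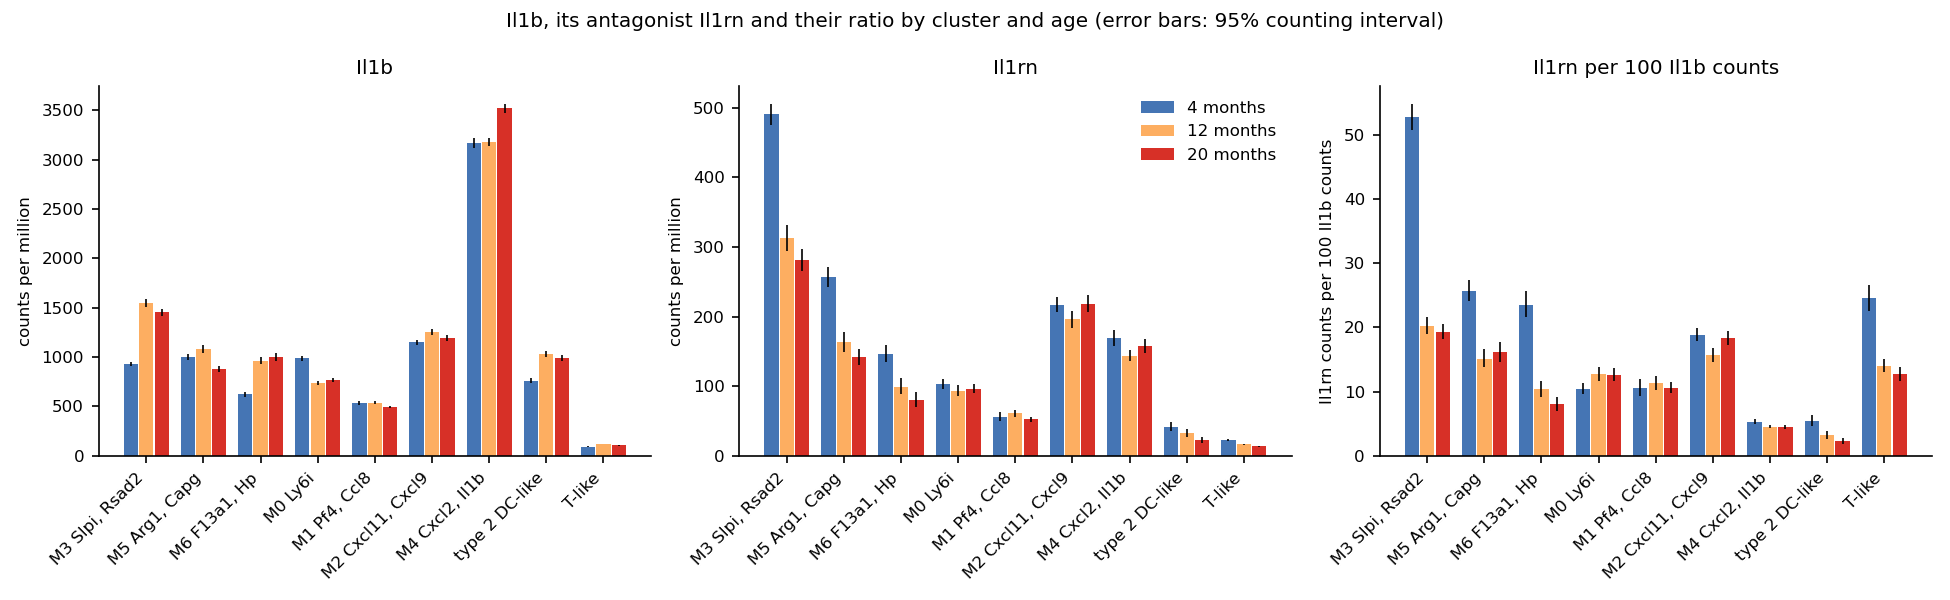
Il1b (CPM), Il1rn (CPM) and Il1rn counts per 100 Il1b counts in 9 groups of cells at 4, 12 and 20 months. Bars start at 0, bars of 1 group are the 3 libraries, and lines are 95% counting intervals. In M3 the ratio bar is 52.8, 20.2 and 19.4 from the youngest to the oldest library, while the M4 bars stay between 4.47 and 5.32.

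Il1r2, the decoy receptor, was highest among the ranked groups in a cluster with little Il1rn. The 24 neutrophil-like cells, too few to be ranked, read more, 1044 CPM over all libraries, with Il1rn at 172 CPM. Type 2 dendritic cell-like cells of cluster M7 had the most, 334, 330.1 and 383 CPM, and their 3 values lay above those of every other myeloid cluster in the order. M4 was next with 291, 181 and 260.2 CPM, then M2 with 124, 106 and 139.9 CPM, with no overlap between these ranks. The share of thinned type 2 dendritic cell-like cells with an Il1r2 count was 31.9%, 32.2% and 36.6%. The pooled C1q-high clusters read 138, 108 and 116 CPM, highest at 4 months, and the C1q-low clusters 51.9, 55.4 and 70.9 CPM, highest at 20 months. In M3 Il1r2 was 51.9, 62.1 and 89.0 CPM, with a log2 ratio of 0.78 (0.57 to 0.98) at 20 months. In M4 the ratio was −0.69 (−0.79 to −0.58) at 12 and −0.16 (−0.26 to −0.057) at 20 months. Il1r2 also separated T-like clusters. It read 106, 128 and 127 CPM in the regulatory-type cluster A8 and 282, 302 and 187 CPM in A17, a small cluster of 192 cells led by Ccl1, Penk and Csf2. A1 and A3 had 16.6, 16.4 and 16.8 and 14.7, 14.7 and 15.9 CPM, close to NK-like cells at 14.5, 14.7 and 15.996. The pooled T-like level of 29.0, 31.5 and 29.9 CPM therefore lies above the lymphocyte background for this gene.

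Of the signalling receptors, Il1r1 and Il18r1 were highest in lymphocyte clusters, while Il1rap was counted in the C1q-low clusters beside the ligands. Il1r1, the signalling receptor, was near 0 in the C1q-high clusters at 0.774, 0.777 and 1.14 CPM and reached 2.48, 2.04 and 2.695 CPM in the C1q-low clusters. In A16, a cluster of 218 T-like cells led by Trgc1, Cd163l1 and Il17a, Il1r1 read 83.8, 83.8 and 83.4 CPM. Its partner Il1rap was counted in the C1q-low clusters at 36.8, 32.8 and 29.7 CPM and in the C1q-high clusters at 9.74, 8.61 and 7.33 CPM. Il18r1, the IL-18 receptor, read 72.2, 61.6 and 64.9 CPM in T-like cells, 51.2, 51.7 and 52.8 in NK-like cells, 112, 125 and 125 in A16 and 12.6, 14.3 and 12.9 in the C1q-high clusters. Its partner Il18rap read 67.1, 48.9 and 47.2 CPM in T-like and 84.1, 69.2 and 75.2 CPM in NK-like cells, highest at 4 months in both. Il1rl1, the IL-33 receptor, read 25.7, 24.3 and 23.9 CPM in A8 and 4.63, 3.72 and 3.70 over all T-like cells. Il33 itself was counted in mature dendritic cell-like cells at 42.3, 16.9 and 69.5 CPM and lay under 2 CPM in the pooled monocyte and macrophage groups.

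Il18, the ligand of the IL-18 receptor on lymphocytes, was highest in the C1q-low clusters. It read 193, 155 and 159 CPM there, against 61.5, 58.6 and 59.5 CPM in the C1q-high clusters and 10.3, 8.72 and 9.64 CPM in T-like cells. The C1q-low clusters held 46.0% of its counts. M3 led with 268, 233 and 212 CPM and M5 followed with 155, 134 and 141 CPM, their ranges apart. M6 and M2 overlapped below them, and M0, M1 and M4 lay together at 51.0, 52.5 and 53.7, 49.4, 53.6 and 53.6 and 54.4, 56.1 and 52.5 CPM. M4, the cluster with the most Il1b, thus lay below M2 for Il18 and was not set apart from M0 and M1. Type 2 dendritic cell-like cells read 39.9, 37.2 and 27.6 CPM and mature dendritic cell-like cells 13.5, 6.24 and 5.89, no more than lymphocytes in 2 of the 3 libraries. With age the C1q-low ratios were −0.32 (−0.41 to −0.23) and −0.28 (−0.36 to −0.19), and the C1q-high ratios −0.069 (−0.17 to 0.032) and −0.049 (−0.15 to 0.048), which include 0.

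Il18bp, the soluble decoy of IL-18, had the opposite distribution among monocytes and macrophages. The C1q-high clusters read 139, 121 and 124 CPM and the C1q-low clusters 74.2, 58.0 and 56.0. M2, led by interferon-induced chemokine genes, was highest with 191, 171 and 172 CPM, and M1 was next with 146, 132 and 127. M6, the F13a1 monocytes, read 18.4, 16.1 and 14.5 CPM, below the T-like level of 22.9, 24.0 and 26.0. Mature dendritic cell-like cells read 161, 104 and 96.6 CPM. For every 100 Il18 counts there were 227, 206 and 208 Il18bp counts in the C1q-high clusters and 38.4, 37.5 and 35.2 in the C1q-low clusters. Between ages this ratio of counts moved much less than that of Il1rn to Il1b. Its log2 change in the C1q-low clusters was −0.036 (−0.20 to 0.13) at 12 and −0.13 (−0.29 to 0.035) at 20 months, and in the C1q-high clusters −0.14 (−0.26 to −0.015) and −0.12 (−0.24 to −0.0040). In M5 there were 71.8, 59.8 and 49.5 Il18bp counts per 100 Il18 counts, a log2 change of −0.54 (−0.80 to −0.27) at 20 months. M6 gave 19.5, 20.3 and 14.3, with −0.45 (−1.05 to 0.15) at 20 months, and M3 29.8, 31.4 and 33.1, both with intervals of the change that include 0. The level of Il18bp itself was lower in the older C1q-low libraries, with log2 ratios of −0.36 (−0.50 to −0.21) and −0.41 (−0.55 to −0.27).

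Nlrp3, the inflammasome sensor that is itself induced by NF-κB, followed Il1b at the top of the order. The 24 neutrophil-like cells, too few to be ranked, read 268 CPM over all libraries. Among the ranked clusters M4 had 85.0, 87.3 and 102 CPM, above all others in each library, then M6 with 61.5, 63.0 and 64.1 CPM. M3, M7 and M5 overlapped below. T-like and NK-like cells read 4.14, 4.40 and 4.31 and 4.31, 4.47 and 4.23 CPM, and mature dendritic cell-like cells, at 3.85, 3.75 and 4.71, did not stand above them. The C1q-low clusters read 56.8, 56.6 and 52.7 CPM and the C1q-high clusters 45.4, 46.1 and 37.2. The C1q-high ratio at 20 months was −0.29 (−0.40 to −0.17). M0 was the cluster with the largest difference, 34.3, 24.1 and 21.3 CPM. In M4 the ratio at 20 months was 0.26 (0.083 to 0.44), the other direction. The thinned share of cells with an Nlrp3 count was 15.1%, 17.2% and 17.7% in M4 and 0.847%, 0.942% and 0.721% in T-like cells.

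Casp1, the caspase that cuts the IL-1β and IL-18 precursors, was counted in every class of cells. The C1q-low clusters read 220.2, 180.3 and 178 CPM, the C1q-high clusters 136, 134 and 127, T-like cells 114, 108 and 119 and NK-like cells 117, 127 and 115. T-like clusters differed among themselves, with 145, 168 and 182 CPM in A1 and 62.4, 52.6 and 48.0 CPM in A3, so this is not an even background. M3 held the most, 279, 228 and 222 CPM, and M4, with 122, 119 and 111 CPM, overlapped NK-like and T-like cells. Mature, type 1 and plasmacytoid dendritic cell-like cells were lower than T-like cells, at 49.1, 65.6 and 66.0, 64.6, 63.2 and 60.4 and 44.9, 43.0 and 41.1 CPM. The C1q-low ratios were −0.29 (−0.37 to −0.21) and −0.30 (−0.38 to −0.22), and the C1q-high ratios −0.020 and −0.090. Since Casp1 in the C1q-high clusters lies close to the T-like level, subtracting that level moved these last ratios to 0.25 and −1.34, and the C1q-low ratios to −0.56 and −0.83.

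Casp4, the gene of caspase-11, differed more between the C1q-low and C1q-high clusters than Casp1 did. It read 195, 158 and 147 CPM in the C1q-low and 69.6, 64.1 and 64.5 CPM in the C1q-high clusters. Its highest clusters, M3 (248, 201 and 196) and M6 (206, 184 and 143), overlapped each other and lay above M2 (103, 105 and 118). T-like cells read 46.6, 37.5 and 46.9 CPM and NK-like cells 72.2, 66.2 and 69.2. In the C1q-low clusters the 4-month library was highest, with ratios of −0.30 (−0.39 to −0.21) and −0.41 (−0.49 to −0.32). The NF-κB patterns printed in the Casp4 window above are a description of its letters, and neither this factor nor its binding was measured.

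Gsdmd, the gene of the pore protein, was the most even of the members. It read 110.2, 107 and 102 CPM in the C1q-high and 106, 107 and 107 CPM in the C1q-low clusters, and 53.4, 49.6 and 49.3 CPM in T-like cells. M2 (128, 127 and 127) and M5 (127, 124 and 122) led and overlapped, and M6 (81.3, 81.4 and 83.0) was lowest among the clusters of monocytes and macrophages that are in the order by median level. The log2 ratios of the C1q-low clusters were 0.019 (−0.091 to 0.13) and 0.018 (−0.089 to 0.13), and those of the C1q-high clusters −0.039 (−0.11 to 0.035) and −0.11 (−0.19 to −0.041).

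Members past a log2 ratio of 0.5 with age were counted beside the share of all genes past it. In the C1q-high clusters 0 of the 9 members with a mean of at least 10 CPM were past it in either direction, at 12 or at 20 months, where 4.29% and 4.01% of 8607 genes were. In the C1q-low clusters 1 of 9, Il1rn, was lower by that size at both ages, against 1.47% and 1.57% of 8296 genes. Il1rn was lower by this size in the C1q-low clusters at both ages under all 10 alternative ways of processing, but the count of members there ranged from 1 to 3 at 12 and from 1 to 6 at 20 months. The others were Il1b and Il1r2, higher, and Casp1, Casp4, Il18 and Il18bp, lower. The count in the C1q-high clusters was 1 with the T-like level subtracted (Il1r2 at 12 and Casp1 at 20 months, both lower) and 0 under the other 9. No share over all genes is given for these alternatives, so their counts are not read against a background. The median of the 9 members in the C1q-low clusters was −0.29 at 12 and −0.28 at 20 months, where the median of all genes was 0.05 and 0.03. In the C1q-high clusters the member medians were −0.07 and −0.17, and those of all genes −0.02 and −0.03. In M3, Il1b was higher and Il1rn lower at 12 months (of 10 members, against 7.40% of genes higher and 2.48% lower). At 20 months M3 had Il1b and Il1r2 higher and Il1rn lower (6.27% and 2.65%). In M6, Il1b was higher and Il1rn lower at 12 months (6.64% and 3.08%), and at 20 months Il1b was higher and Il1rn and Casp4 lower (6.80% and 4.39%). In M5, Il1rn was lower at 12 months (3.90%), and Il1rn and Il18bp at 20 months (4.03%). Il1rn was thus the 1 member that was past this size in all 3 C1q-low clusters at both ages. In M4 only Il1r2 at 12 months was lower by this size (2.33%), and in M0 only Nlrp3, at 12 (2.14%) and 20 months (2.56%).

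In type 2 dendritic cell-like cells more members were past the fold at 20 than at 12 months. At 12 months Il18bp was lower (1 of 9, against 2.79% of genes). At 20 months Il1rn, Il18, Il18bp, Casp1 and Casp4 were lower (5 of 9, against 4.82%). Casp1 read 170.5, 135 and 119 CPM and Casp4 103, 82.7 and 69.0 CPM in these cells, both highest at 4 months. Il1b, Il1r2 and Nlrp3 were not among them, with ratios at 20 months of 0.37, 0.21 and 0.051. The defining gene Cd209a read 292, 248 and 101 CPM in this class, lowest at 20 months. The list of 7 type 2 dendritic cell markers that holds it summed to 737, 887 and 673 CPM, highest at 12 months. C1qa read 216, 284 and 404 CPM. The 10 C1q macrophage markers summed to 721, 993 and 1297 CPM here and to 564, 764 and 1167 CPM in T-like cells. The 11 monocyte markers summed to 7325, 6079 and 5388 CPM here and to 7435, 7602 and 6666 CPM in T-like cells. These marker levels thus differed between the 3 libraries, and the part of this in the members' ratios was not tested. Of the related lists in type 2 dendritic cell-like cells, Mefv, the sensor pyrin, was lower at 20 months (1 of 11 sensors, a ratio of −0.80 (−1.23 to −0.38)), and 0 of 8 signalling genes passed the fold. Of 11 genes induced by NF-κB, Cxcl2 and Tlr2 were higher at 12 months (as were 524 of 8735 genes, ratios of 0.66 (0.27 to 1.05) and 0.58 (0.26 to 0.91)). In mature dendritic cell-like cells, Il1rn was higher at 12 months (13.1% of genes), and Il18bp was lower at 12 (8.68%) and 20 months (14.7%), in a group of 102 to 169 cells per library. In T-like cells Il1rn was lower at 20 months (1 of 7, against 1.82%). In NK-like cells Il1rn was lower at 12 (1 of 7, against 1.16%) and at 20 months (1 of 7, against 1.01%), with ratios of −0.54 (−0.80 to −0.29) and −0.94 (−1.26 to −0.63). The smallest groups had more genes past the fold. Type 1 dendritic cell-like cells, 91 to 158 per library, had Il18bp higher (of 9, against 12.4%) and Il1rn lower (11.7%) at 12 months, and Il1rn, Il18bp, Nlrp3 and Casp4 lower at 20 months (4 of 9, against 10.0%). Of these only Casp4 at 20 months had an interval that excludes 0, at −0.65 (−1.14 to −0.15). Plasmacytoid dendritic cell-like cells, 52 to 61 per library, had Il18bp higher (of 7, against 20.6%) and Il1rn and Casp4 lower (19.4%) at 12 months. At 20 months they had Il18bp higher (22.0%) and Il1rn, Il1r2 and Casp4 lower (20.6%), with intervals that all include 0. Casp4 there read 117, 21.5 and 75.4 CPM, from 39, 8 and 22 counts.

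**Figure D3:**
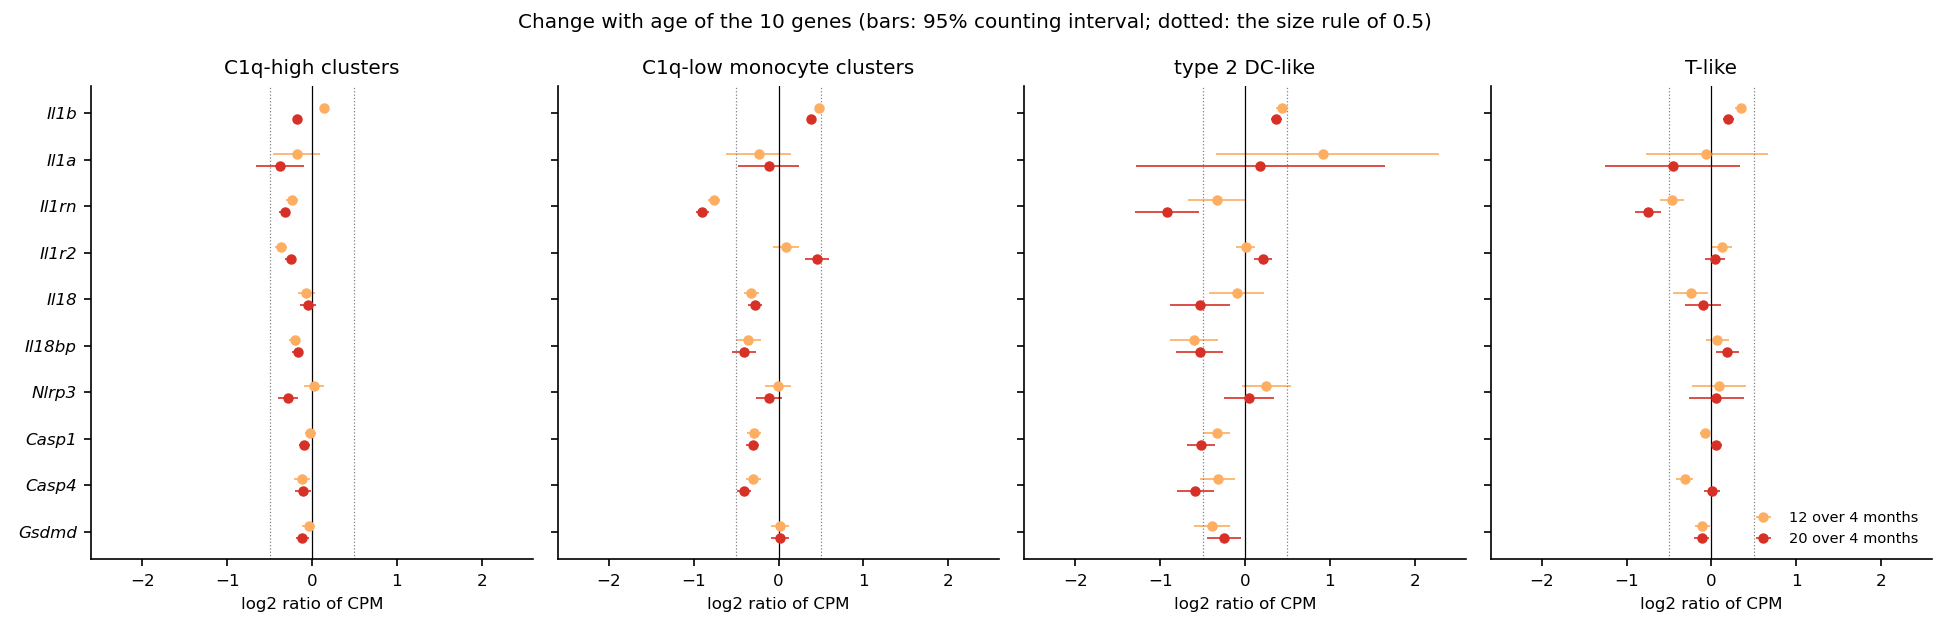
Log2 ratios of the members' levels at 12 and 20 months to those at 4 months in the C1q-high, C1q-low monocyte, type 2 dendritic cell-like and T-like groups. Points are ratios, bars are 95% counting intervals, and dotted lines mark 0.5 in either direction. Il1rn lies left of the lower line in the C1q-low group at both ages, while every member of the C1q-high group with at least 10 CPM lies between the lines.

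The wider pathway gave counts near the share over all genes, which in either direction was 4.29% and 4.01% in the C1q-high and 5.97% and 4.75% in the C1q-low clusters. Among 9 signalling genes of the IL-1 receptor (Myd88, the Irak kinases, Traf6 and others), 0 of 9 were past the fold in the C1q-high or the C1q-low clusters at either age. The same was true of 0 of 11 sensors and adaptors with enough counts, among them Pycard, the adaptor ASC, and Aim2, a sensor of DNA. Pycard read 299.8, 290.4 and 329 CPM in the C1q-high clusters and 263, 234 and 225 in T-like cells, and Aim2 95.2, 85.8 and 97.7 CPM in the C1q-low clusters. P2rx7, the ATP-gated channel that triggers NLRP3, read 39.8, 43.9 and 52.4 CPM in the C1q-high and 21.7, 26.2 and 27.5 CPM in the C1q-low clusters. Of 4 other cell-death effectors with enough counts, 0 were past the fold in either group. Ninj1, which ruptures the membrane of dying cells, read 202, 189 and 187 CPM in the C1q-low and 89.5, 96.2 and 96.3 CPM in the C1q-high clusters. None of the 3 receptors or decoys with enough counts in the C1q-high clusters, and none of 4 in the C1q-low clusters, was past it.

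Genes induced together with Il1b by NF-κB were examined beside it. In the C1q-low clusters 0 of 12 such genes were higher by the fold at either age, where 4.50% and 3.18% of all genes were, a count near that background. Il6 was lower at 12 and 20 months (−0.51 (−0.77 to −0.26) and −0.56 (−0.81 to −0.31)) and Ccl4 at 20 months (−0.80 (−0.85 to −0.76)). Of all genes, 1.47% and 1.57% were lower by the fold in these clusters at 12 and 20 months. In the C1q-high clusters 1 of 11, Cxcl2, was higher at 12 months (0.77 (0.70 to 0.84)) and 0 of 11 at 20 months. Of the 15 early-response genes, 4 were higher in the C1q-high clusters at 12 months, against 3.25% of all genes (Hspa1b, Hspa1a, Egr1 and Fosb, with ratios of 1.35, 1.14, 0.81 and 0.64). At 20 months Hspa1b was higher (2.61% of genes) and Dusp1, Jun, Fos and Zfp36 were lower (1.39%), the last 4 with ratios of −0.64, −0.63, −0.61 and −0.57. The sum of the list in the C1q-high clusters was 5353, 6232 and 3846 CPM, the same order over the libraries as Il1b in these clusters. In T-like cells it was 2773, 2805 and 2050.3 CPM, so the 20-month library was lowest there too. In the C1q-low clusters Fosb, Hspa1a and Hspa1b were higher at 12 months, and at 20 months Hspa1b was higher and Dusp1 lower (0.92 and −0.52). Whether these sums bear on the Il1b levels was not tested.

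Over 60 summed profiles (20 clusters in 3 libraries), the genes most like Il1b in log2(CPM + 1) among 11379 genes were Csf2ra (Pearson's r = 0.94), Tnfaip2 (0.94), Spi1 (0.93), Nupr1 (0.93) and Creb5 (0.92). For Il1rn they were Cstb (0.92), Ninj1 (0.92), Slfn4 (0.91), Rhog (0.91) and Nupr1 (0.91), and for Il18 Rnpep (0.93), Slc7a8 (0.93), Gm49342 (0.92), Capza2 (0.92) and Slfn4 (0.92). Profiles of 1 library share its depth and its free RNA, and clusters of 1 lineage share most of their genes, so these values describe the order of clusters and carry no p.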

How the data were processed

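For each of the 3 libraries the authors deposited raw counts of every gene in every cell (whole numbers, not normalized). STAR 2.7.10a and GRCm38 are named in the submitters' processing notes, and the counting settings, the use of strand and whether molecules or reads were counted are not given in the sources used here. Gene symbols were taken from the files, positions from GENCODE M21 and promoters from RefSeq (GRCm38.p6).

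Cells below 500 counts or above 15% mitochondrial counts were dropped (2 in all, for mitochondrial counts), and the 6% with the highest Scrublet score in each library were removed. The lowest total of any deposited cell was 3555, 4493 and 4356 counts at 4, 12 and 20 months, so the 500-count limit removed no cell. Cells with fewer counts are thus absent from the deposited data, and this floor differed between libraries. Its part in the shares of cells and counts by class was not tested. Cells were clustered with scanpy 1.11.5 (counts scaled to 10000 per cell, 2000 variable genes, 30 principal components, 15 neighbours, Leiden resolution 1.0), without the members and related lists. Myeloid cells were then clustered again, also without 5 genes that stood apart in 1 library (Ak7, Cbfa2t2, Gm29683, Gm47854 and Vwc2l). It had been planned to keep these genes in the reported clustering and to leave them out as an alternative. Leaving them out of the second step became the reported version after the clusters had been seen, and 2 alternatives were added then (these genes kept in both steps, and clusters weighted equally). Clusters were named from 16 marker lists. A name needed a mean marker score of at least 0.4, on a scale from each marker's lowest to its highest cluster, at least 3 markers detected in at least 10% of cells, and no more markers of another class among the 10 leading genes. This scoring was also set after the clusters had been seen.

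Counts were summed per library and group and scaled to 1000000 counts of the group (CPM), with exact 95% Poisson intervals. Log2 ratios and ratios between genes have exact conditional binomial intervals, log2 changes of a ratio between genes have intervals from the normal approximation, and shares of cells have exact binomial ones after thinning to 2000 counts. All cover counting error only. A gene counted as past the fold at a log2 ratio of 0.5 or more in size, if its mean was at least 10 CPM. The rule was tested on simulated counts with known fold changes. These counts held counting error only, so that test does not cover differences between libraries, mice or mixes of cells. TMM factors for 1 alternative came from edgeR 4.0.16. Named genes were the 10 members, genes of the related lists past the fold, and the 5 genes most like Il1b, Il1rn and Il18. Genes named for their level alone (among them Il1r1, Il1rap, Il18r1, Il18rap, Il1rl1, Il33, Pycard, Aim2, P2rx7, Ninj1, Foxp3 and marker genes) and T-like clusters singled out (A8, A16 and A17) were chosen after their values were seen. Levels without the 10 cells with the most counts of a gene were an alternative chosen after seeing the data. The members and lists were chosen with earlier results of these data known.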

Additional observations from a re-analysis of the deposited data

Results flagged for a closer look

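Il1rn, the antagonist gene, went in opposite directions in 2 clusters between 4 and 12 months. In mature dendritic cell-like cells (M8) its log2 ratio was 0.55 (0.15 to 0.96), and in the Arg1 monocytes of M5 it was −0.65 (−0.80 to −0.51). The difference between these clusters was not tested, and each rests on 1 library per age.

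A cluster of 24 neutrophil-like cells, led by S100a8 and S100a9 and holding 8, 11 and 5 cells at 4, 12 and 20 months, lay outside the comparisons and carried several members far above the T-like level. Over all libraries Il1b read 5344 CPM (5027 to 5677, from 1055 counts) against 106 CPM in T-like cells. Il1r2 read 1044 CPM (906 to 1196, from 206 counts) against 30.3 CPM. Nlrp3 read 268 CPM (201 to 351, from 53 counts) against 4.30 CPM, and Il1rn 172 CPM (119 to 241, from 34 counts) against 16.8 CPM. These 24 cells held 0.533% of all Il1b counts and 0.923% of all Il1r2 counts. Intervals over so few cells understate the spread, since single cells can carry many of the counts.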

How the results depend on the processing

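No paired analysis was possible because each age is 1 library. In order, the log2 ratios of Il1b were 0.14 and −0.18 in the C1q-high and 0.48 and 0.38 in the C1q-low clusters at 12 and 20 months, and the log2 changes of Il1rn to Il1b were −0.38 and −0.14, and −1.24 and −1.28. Under every alternative run, Il1b stayed higher in the older C1q-low libraries and the C1q-low change of Il1rn to Il1b stayed below 0, while the C1q-high ratios of Il1b turned with equal weights per cluster (−0.032 and 0.034). Equal weights also gave −0.11 for the C1q-high change of Il1rn to Il1b at 12 months, −1.13 for the C1q-low one, and 0.060 for Casp4 in the C1q-high clusters at 20 months. At resolution 0.5, Il1b gave 0.11, −0.22, 0.60 and 0.51, and the C1q-high change at 12 months was −0.47. With cells of at least 5000 counts, Il1b gave 0.17 (C1q-high, 12 months) and 0.43 (C1q-low, 20 months), and the C1q-high change −0.50 and −0.28. With library-specific genes out of both clusterings, Il1b gave 0.065, −0.29, 0.79 and 0.72, and the C1q-low change −1.60 and −1.60. With these genes kept in both, Il1b gave 0.0085, −0.29, 0.77 and 0.58, and the changes −0.27 (C1q-high, 12 months), −1.54 and −1.40 (C1q-low). With libraries clustered separately, Il1b gave 0.074, −0.26, 0.29 and 0.67, and the changes −0.52, −0.068, −1.15 and −1.83. With the T-like level subtracted, Il1b in the C1q-high clusters gave −0.21 and the change −0.044 at 20 months, and Casp4 at 12 months 0.21. Without doublet removal, the C1q-high changes were −0.45 and −0.22, and at 12 months C1q-low Il1b gave 0.42 and the change −1.16. Per-cell means gave −0.15 and 0.33 for Il1b at 20 months in C1q-high and C1q-low cells, and TMM scaling 0.39 and 0.31 in C1q-low cells. The cause of these differences was not tested. For the other results, 298 of 386 alternative values stayed within the counting interval. A sign other than the reported one was given by 39 values of 14 results, 2 of them, the Casp4 values above, for a reported interval that excludes 0 and 37 for one that includes 0. Genes past the fold numbered 369 and 345 (C1q-high, 12 and 20 months) and 495 and 394 (C1q-low). They numbered 84, 87, 102 and 81 at a minimum of 50 CPM and 10389, 10177, 10192 and 9913 with no minimum, where most have few counts. Depth limits Il1a most, with 86 to 178 counts per library in the C1q-low clusters.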

Other observations

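The nonclassical monocyte-like cells (M10, with Ace and Ear2), 123, 52 and 45 cells at 4, 12 and 20 months, were left out of the comparisons as the oldest library held fewer than 50. They carried Il1b at 1599, 1638 and 1149.5 CPM and Il1rn at 306, 207 and 145 CPM, or 19.1, 12.6 and 12.6 Il1rn counts per 100 Il1b counts. Il18 read 77.7, 36.3 and 50.4 CPM and Nlrp3 58.9, 49.1 and 40.9 CPM in these cells. In the 44 mast cell-like or basophil-like cells, Il1rl1, the IL-33 receptor gene, read 759.6 CPM over all libraries, and Il1r1 read 37.2 CPM in the 128 fibroblast-like cells that passed the CD45 sort. Sigirr, an inhibitory receptor of the family, read 67.8, 63.3 and 61.1 CPM in NK-like cells, 39.4, 41.3 and 36.4 CPM in T-like cells and 10.5, 13.2 and 11.5 CPM in the C1q-high clusters.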
